A study of Mus musculus with 6 samples.

Results

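Egr1, Egr2, Egr3, Fos, Fosb, Jun, Junb, Ier2, Nr4a1 and Dusp1 are immediate-early genes, and their transcripts were followed in mouse (C57BL6) bone marrow granulocyte-monocyte progenitors carrying ER-HOXA9. These 10 genes are 10 of the 23337 in the deposited count table. They were picked by name, with their levels in all 3 groups already known, so their levels, changes and counts of calls are given as a description, with no p-value for any of them, and nothing is read from the calls. ER-HOXA9 joins the homeobox factor HOXA9 to a hormone-binding part of the estrogen receptor, which keeps such progenitors immature and dividing while estradiol is present. All cells, controls included, carried ER-HOXA9 and grew in RPMI medium with heat-inactivated serum, glutamine, stem cell factor and 0.5 µM beta-estradiol. Drug-treated cells received 200 nM GSK-LSD1, 5 µM mercaptopurine and 5 µM cerulenin together for 3 days. GSK-LSD1 inhibits the histone demethylase LSD1, mercaptopurine is a thiopurine antimetabolite, and cerulenin inhibits fatty acid synthase. Vehicle cells received DMSO for 3 days, and untreated cells were taken at day 0. Each group had 2 libraries, which the study calls biological replicates. The 3 drugs were given only in combination, and the sources do not say whether the cells are a single clone.

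Immediate-early genes are switched on within minutes of a stimulus without the need for new protein, and their RNAs and proteins are short-lived. Growth factors such as stem cell factor, acting through its receptor KIT, RAS and the kinase ERK, reach them through serum response factor (SRF) with its ternary complex partners and through CREB. The products are zinc finger factors (EGR), the FOS and JUN proteins that pair to form AP-1, nuclear receptors (NR4A) and ERK or stress-kinase phosphatases such as DUSP1. In myeloid progenitors, Egr1, Egr2 and AP-1 are known for their part in monocyte and macrophage differentiation.

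For 7 of the 10 genes, RefSeq promoter windows (GRCm38.p6, 250 bases before to 50 after the transcript start) were at hand, and both strands were searched for 6 motifs: the SRF-binding CArG box, the cAMP response element TGACGTCA, the AP-1 site TGANTCA, the EGR site GCGNGGGCG, the NR4A site AAAGGTCA and the TATA box TATAAA. No motif contains another. The CArG box was found in Egr2 (CCATATATGG, first base 72 bases before the start, and CCTTTTTTGG in another of its 5 windows) and in 1.81% of 27025 genes. The cAMP response element was found in Dusp1 and in 2.03% of genes. The EGR site was found in Fosb and Nr4a1 and in 6.27% of genes. TATAAA was found in Fos, 33 bases before the start, in Junb at the first transcribed base, and in 15.7% of genes. Neither the AP-1 site (8.97% of genes) nor the NR4A site (1.7% of genes) was found in the 7 windows. Egr1, Egr3 and Ier2 were not searched. The 250 bases before the start are shown for 4 of the searched genes, Egr2, Fos, Jun and Junb. Capitals mark the CArG box in Egr2 (chr10:67537619-67537868, plus strand) and the TATA box in Fos (chr12:85473640-85473889, plus strand). The stretches of Jun (chr4:95052223-95052472, minus strand) and Junb (chr8:84978749-84978998, minus strand) held none of the 6 motifs. Only exact letters inside the windows were searched, so a gene without a match may still hold a variant or more distant site. These matches describe the letters in the windows and were not set against the expression data by a test.
Egr2: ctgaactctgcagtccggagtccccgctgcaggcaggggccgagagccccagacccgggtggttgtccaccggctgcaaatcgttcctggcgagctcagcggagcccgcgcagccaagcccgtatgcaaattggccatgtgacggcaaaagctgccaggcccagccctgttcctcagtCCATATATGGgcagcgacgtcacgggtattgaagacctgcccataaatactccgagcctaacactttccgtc
Fos: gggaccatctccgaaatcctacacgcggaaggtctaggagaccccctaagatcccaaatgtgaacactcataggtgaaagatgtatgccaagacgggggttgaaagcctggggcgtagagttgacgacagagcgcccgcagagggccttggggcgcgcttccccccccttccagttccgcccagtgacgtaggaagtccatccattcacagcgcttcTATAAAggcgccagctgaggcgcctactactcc
Jun: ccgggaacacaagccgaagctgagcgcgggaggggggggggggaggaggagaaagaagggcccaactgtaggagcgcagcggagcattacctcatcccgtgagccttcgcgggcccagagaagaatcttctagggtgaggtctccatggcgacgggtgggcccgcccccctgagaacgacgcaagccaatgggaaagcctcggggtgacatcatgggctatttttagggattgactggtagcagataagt
Junb: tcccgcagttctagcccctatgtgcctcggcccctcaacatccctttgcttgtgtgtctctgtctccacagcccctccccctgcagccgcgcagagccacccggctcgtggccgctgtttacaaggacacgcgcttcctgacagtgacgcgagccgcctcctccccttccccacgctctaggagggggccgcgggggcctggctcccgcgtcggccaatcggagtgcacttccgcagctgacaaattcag

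Libraries held 11305666 to 16948697 counts. The ribosomal RNA gene Rn45s took 14.6 to 16.1% of counts in the day 3 libraries, and 20.4% and 24.6% in the untreated ones. All 10 granulocyte-monocyte progenitor markers were detected, with a summed level, in counts scaled to library size (CPM), of 11071 and 11644 with drugs, 8865 and 9080 with vehicle, and 7912 and 8225 at day 0. The markers did not all follow this sum. In the fit described below, Kit, Fcgr3, Mpo and Flt3 were called higher with drugs against vehicle, and Ctsg and Hoxa9 lower. With drugs against day 0, Kit, Mpo, Elane and Flt3 were called higher, and Ctsg, Hoxa9 and Meis1 lower. In vehicle against day 0, Elane and Flt3 were called higher, and Fcgr3 and Meis1 lower. Any reads of the ER-HOXA9 construct were not told apart from those of Hoxa9. Among markers of other cells, the T and NK cell genes Cd3e, Cd3g and Ncr1, the stromal and endothelial genes Col3a1, Cdh5 and Kdr, the mast cell and basophil genes Tpsb2 and Fcer1a, the macrophage genes C1qa, C1qc and Marco and the erythroid gene Hba-a1 had 0 counts in all 6 libraries. Other members of these lists did have counts. The mast cell and basophil list, for example, summed to 1212 CPM in drug replicate 1, and the sums of all these lists are given below.

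Levels below are CPM scaled by TMM, the trimmed mean of M values, and log2 changes come with their standard error (SE) from 1 edgeR quasi-likelihood fit to all 6 libraries. In these bulk libraries, fewer cells of a type and less RNA per cell cannot be told apart. Egr3 and Nr4a1 had 0 counts in every library, which allows at most 0.179 to 0.251 CPM per library (3 counts, counting error only). Fosb had 4 and 3 counts with drugs, 1 and 3 with vehicle, and 6 and 6 at day 0, too few to pass the filter on low counts. The other 7 genes passed it, and the exons of none of the 10 overlap another gene of the table.

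Egr1, a zinc finger factor and the best-known EGR gene (chromosome 18, 34861207 to 34864956, mm10), had 1.60 and 1.29 CPM with drugs, 1.98 and 0.84 CPM with vehicle, and 38.9 and 40.2 CPM at day 0. Both day 3 groups were low and overlapped each other, while both untreated libraries were high. The day 3 libraries held 10 to 25 Egr1 counts each, against 650 and 484 in the untreated libraries. The log2 change was -4.79 ± 0.20 in vehicle against day 0, a level 27.6-fold lower, and -4.78 ± 0.20 with drugs against day 0, a level 27.5-fold lower. Between drugs and vehicle it was 0.01 ± 0.36. It ranged from -0.48 to 0.77 across the 14 alternative analyses, so its direction is not fixed at this depth. These ends, and the lowest value in vehicle against day 0 (-5.55), come from leaving out 1 vehicle library, vehicle replicate 1 for 0.77 and -5.55 and vehicle replicate 2 for -0.48.

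Egr2, a paralog of Egr1 (chromosome 10, 67537869 to 67542188), had 0.320 and 0.323 CPM with drugs, 0.474 and 0.669 CPM with vehicle, and 1.38 and 2.33 CPM at day 0. The 3 groups did not overlap, and the drug-treated libraries were lowest. These levels rest on 4 to 8 counts per day 3 library and on 23 and 28 counts at day 0. The log2 change was -0.81 ± 0.61 with drugs against vehicle, -1.64 ± 0.42 in vehicle against day 0 and -2.44 ± 0.46 with drugs against day 0. The EGR corepressor genes Nab1 and Nab2, which are not among the 10 and encode proteins that bind EGR factors and block their activity, passed no test in the 3 comparisons, neither at an unadjusted p under 0.05 nor with DESeq2. Nab1 had 54.9 and 53.2 CPM with drugs, 55.9 and 52.4 with vehicle, and 49.8 and 59.6 at day 0. Nab2 had 5.21 and 4.52 CPM with drugs, 5.14 and 5.27 with vehicle, and 5.80 and 6.90 at day 0, where it was highest. Its log2 change was -0.27 ± 0.18 in vehicle against day 0 and -0.38 ± 0.18 with drugs against day 0.

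**Figure D1:**
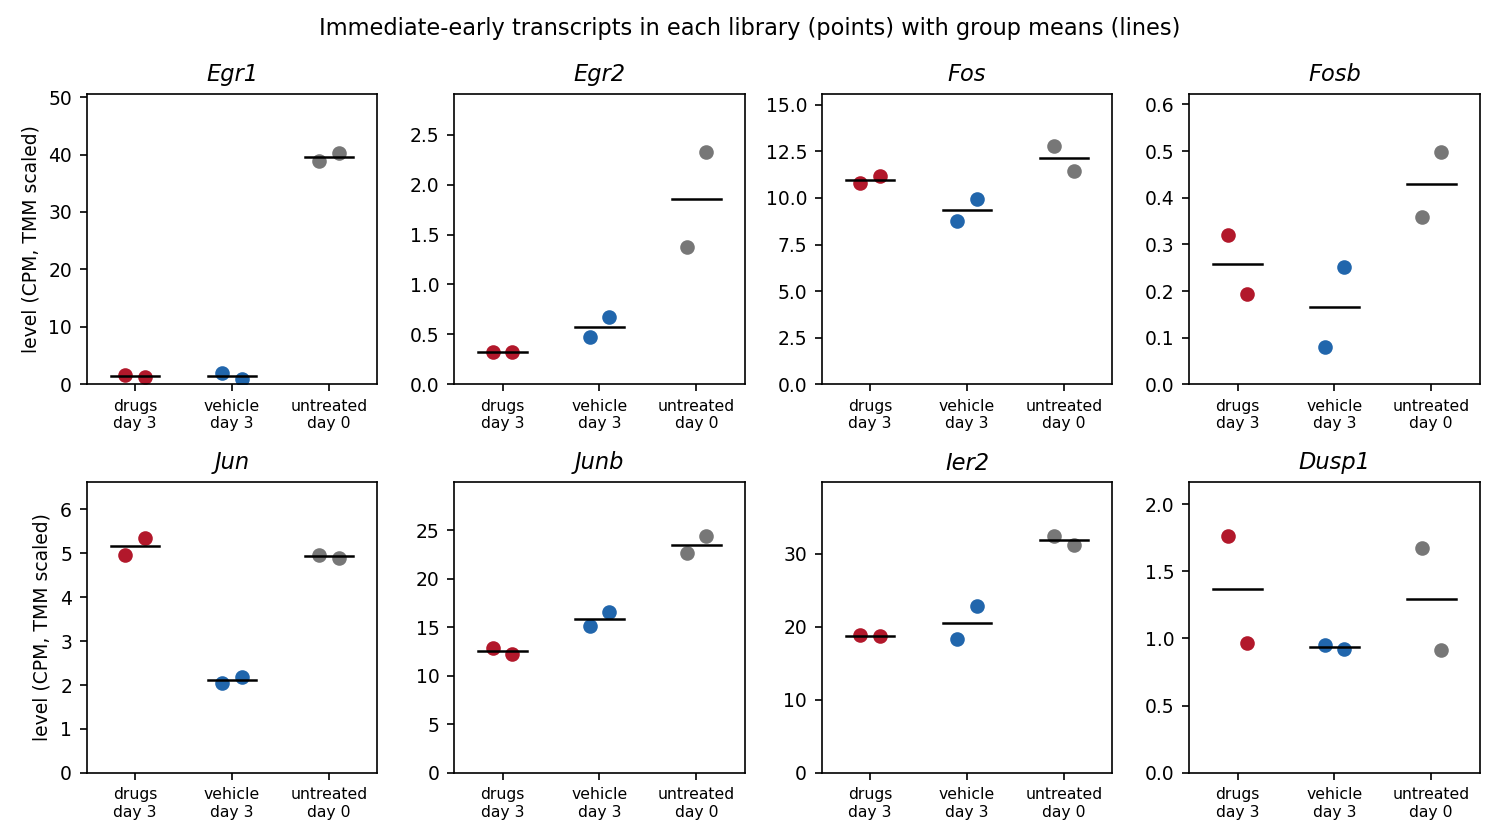
Level of 8 immediate-early genes in each library, in TMM-scaled CPM on a linear axis that starts at 0 and differs between panels. Points are libraries and black lines group means (2 libraries each). Egr1 stood near 40 CPM in the untreated libraries only, Jun was low in vehicle libraries only, and Junb and Ier2 were highest at day 0. Egr3 and Nr4a1, at 0 throughout, are not drawn.

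Fos, the founding subunit of AP-1 (chromosome 12, 85473901 to 85477270), had 10.8 and 11.2 CPM with drugs, 8.77 and 9.95 CPM with vehicle, and 12.8 and 11.5 CPM at day 0. The groups lay close together but did not overlap, with vehicle lowest and day 0 highest. The log2 change was 0.23 ± 0.14 with drugs against vehicle, -0.38 ± 0.14 in vehicle against day 0 and -0.15 ± 0.13 with drugs against day 0.

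Jun, the partner of Fos in the classical AP-1 dimer (chromosome 4, 95049036 to 95052222, 1 exon), had 4.97 and 5.36 CPM with drugs, 2.06 and 2.17 CPM with vehicle, and 4.97 and 4.90 CPM at day 0. The vehicle libraries were low, and the drug-treated and untreated libraries lay side by side. The vehicle levels rest on 26 counts in each library, against 62 and 83 with drugs and 83 and 59 at day 0. The level was 2.44-fold higher with drugs than with vehicle (log2 change 1.29 ± 0.21) and 2.33-fold lower in vehicle than at day 0 (-1.22 ± 0.21). Between drugs and day 0 the log2 change was 0.07 ± 0.17.

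Junb, a JUN paralog with weaker transactivation (chromosome 8, 84976909 to 84978748, 1 exon), ran in a different order, with 12.9 and 12.2 CPM with drugs, 15.1 and 16.6 CPM with vehicle, and 22.6 and 24.4 CPM at day 0. No groups overlapped, and the drug-treated libraries were lowest. The log2 change was -0.34 ± 0.12 with drugs against vehicle, -0.57 ± 0.11 in vehicle against day 0 and -0.90 ± 0.11 with drugs against day 0.

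Ier2, a short single-exon gene whose product is a nuclear protein (chromosome 8, 84661331 to 84662852), had 18.8 CPM in both drug-treated libraries, 18.3 and 22.8 CPM with vehicle, and 32.5 and 31.2 CPM at day 0. The day 3 groups overlapped and both lay below day 0. The log2 change was -0.13 ± 0.12 with drugs against vehicle, -0.63 ± 0.11 in vehicle against day 0 and -0.76 ± 0.11 with drugs against day 0. Dusp1, which encodes a phosphatase of the kinases p38, JNK and ERK, had 1.76 and 0.97 CPM with drugs, 0.95 and 0.92 CPM with vehicle, and 1.68 and 0.91 CPM at day 0. For Dusp1, 1 library with drugs and 1 at day 0 were high, and the other 4 lay together between 0.91 and 0.97 CPM. Its log2 change with drugs against vehicle was 0.50 ± 0.43. Dusp1 had only 11 to 28 counts per library.

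The order of the 10 genes can be compared only per length of transcript. With drugs, Ier2 led with a mean of 12.4 CPM per kilobase, followed by Junb at 6.82, Fos at 5.25, Jun at 1.62, Dusp1 at 0.703, Egr1 at 0.471, Egr2 at 0.108 and Fosb at 0.0681. With vehicle the order was Ier2 at 13.5 CPM per kilobase, Junb at 8.60, Fos at 4.47, Jun at 0.664, Dusp1 at 0.481, Egr1 at 0.458, Egr2 at 0.193 and Fosb at 0.0437. At day 0 it was Ier2 at 20.9 CPM per kilobase, Egr1 at 12.9, Junb at 12.8, Fos at 5.80, Jun at 1.55, Dusp1 at 0.667, Egr2 at 0.624 and Fosb at 0.114. Egr1 thus stood between Dusp1 and Egr2 in both day 3 groups, and beside Junb at day 0. The libraries of Dusp1 and Egr1 overlapped per kilobase in both day 3 groups, and those of Egr1 and Junb and of Dusp1 and Egr2 overlapped at day 0, so these neighbours are not ordered.

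Over the 7 genes that passed the filter, the fit called 1 gene higher (Jun) and 1 lower (Junb) with drugs against vehicle, at an adjusted p under 0.05, beside 18.1% and 13.8% of all 11283 tested genes. Vehicle against day 0 gave 0 called higher, also at an unadjusted p under 0.05 and with DESeq2, and 5 lower (Egr1, Egr2, Jun, Junb and Ier2), beside 3.75% higher and 3.99% lower among all genes. For drugs against day 0 it gave 0 higher, again also unadjusted and with DESeq2, and 4 lower (Egr1, Egr2, Junb and Ier2), beside 22.7% and 21.2%. Their median log2 change was 0.01, -0.63 and -0.76 in the 3 comparisons, in that order, beside 0.00, -0.02 and -0.01 over all tested genes. Libraries of the compared groups did not overlap for 3 genes that were higher and 2 that were lower with drugs than with vehicle, beside 35.1% and 33.7% of all tested genes. In vehicle against day 0 these were 0 and 6, beside 23.9% and 26.9%, and with drugs against day 0 they were 1 and 5, beside 37.2% and 36.1%. Since the genes were chosen from these levels, nothing is read from the counts, and the comparisons share libraries. With library totals in place of TMM, the share of all calls that were higher was 89.0% instead of 48.5% in vehicle against day 0 and 70.4% instead of 51.7% with drugs against day 0, and the called genes among the 10 kept their direction.

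**Figure D2:**
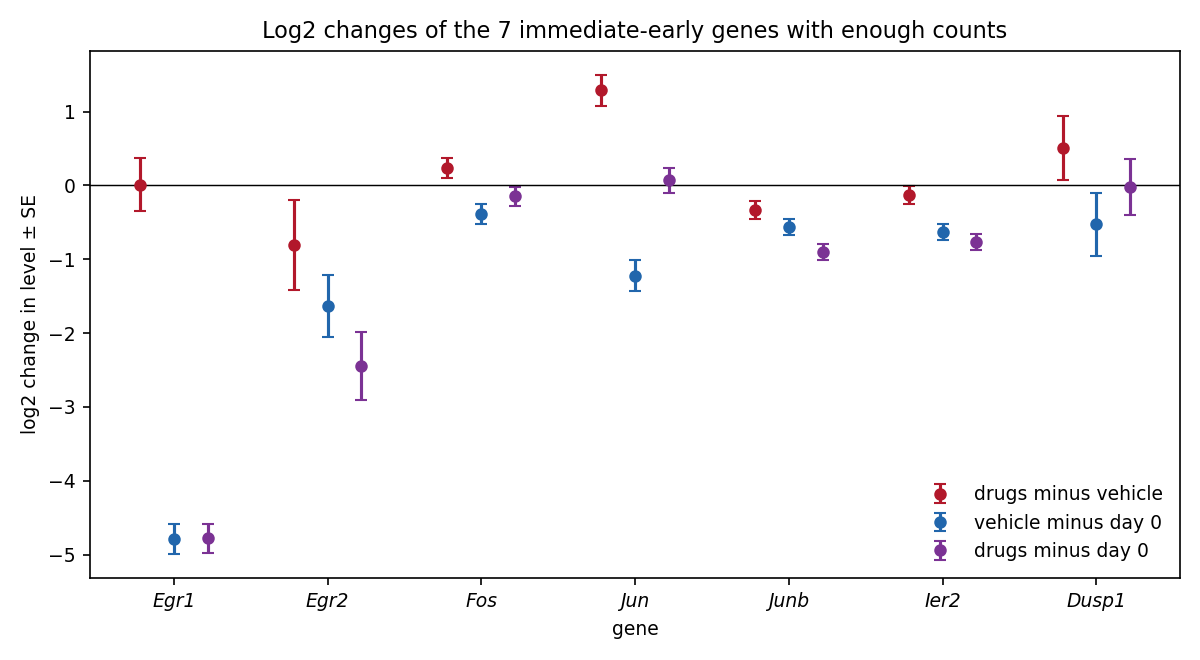
Log2 change of the 7 immediate-early genes that passed the filter, with bars of 1 SE from the edgeR fit, for drugs minus vehicle (red), vehicle minus day 0 (blue) and drugs minus day 0 (purple). Egr1 lies near -4.8 in both comparisons with day 0 and near 0 between the day 3 groups, while Jun is above 0 against vehicle, below 0 in vehicle against day 0 and near 0 with drugs against day 0.

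Several of these calls rested on the choice of analysis. The Junb call with drugs against vehicle was lost in 8 of 14 alternatives, among them leaving out drug replicate 1, drug replicate 2, vehicle replicate 1 or vehicle replicate 2. The Egr2 call in vehicle against day 0 was lost in 7 of the 13 alternatives that kept the gene (leaving out drug replicate 1, drug replicate 2, vehicle replicate 1, vehicle replicate 2 or untreated replicate 2, DESeq2, and only the 2 groups), and the Junb call in vehicle against day 0 was lost without vehicle replicate 1. The log2 changes of Junb stayed between -0.40 and -0.28 with drugs against vehicle, and those of Egr2 between -2.01 and -1.27 in vehicle against day 0.

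Relatives of these genes that are not among the 10 were tested. This list and all later gene lists were also drawn up with earlier results of these data known. Their p-values do not allow for that choice. Fosl2, which encodes the FOS-related AP-1 subunit FRA2 (chromosome 5, 32136472 to 32157839), had 73.9 and 69.6 CPM with drugs, 25.8 and 26.2 CPM with vehicle, and 21.3 and 25.3 CPM at day 0. Only the drug-treated libraries were high, and Fosl2 rose by 1.46 ± 0.09 on the log2 scale with drugs against vehicle (edgeR quasi-likelihood test, adjusted p = 9.89e-08) and by 1.63 ± 0.09 against day 0 (edgeR adjusted p = 3.07e-08). Its change of 0.17 ± 0.10 in vehicle against day 0 did not pass (edgeR adjusted p = 0.324). Fosl1, which encodes the AP-1 subunit FRA1, had 2.24 and 1.42 CPM with drugs, 4.19 and 3.09 CPM with vehicle, and 4.61 and 6.23 CPM at day 0. It fell by 1.02 ± 0.30 with drugs against vehicle (edgeR adjusted p = 0.0197) and by 1.57 ± 0.27 against day 0 (edgeR adjusted p = 0.000576). The first call did not survive the removal of drug replicate 2 (adjusted p = 0.198) or vehicle replicate 1 (adjusted p = 0.153). The exons of Fosl1 overlap those of Ccdc85b, and no source gives the strand setting of the counting, which leaves its counts uncertain.

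Jund, the JUN paralog that most cells express at rest, had 14.6 and 15.1 CPM with drugs, 10.2 and 10.9 CPM with vehicle, and 12.3 and 13.0 CPM at day 0. It rose by 0.50 ± 0.12 with drugs against vehicle (edgeR adjusted p = 0.00788), but not with DESeq2 (adjusted p = 0.0576), nor when drug replicate 2 (adjusted p = 0.0758) or vehicle replicate 1 (adjusted p = 0.054) was left out. Ier3, an immediate-early gene linked to cell survival, fell by 0.74 ± 0.23 with drugs against day 0 (edgeR adjusted p = 0.0186), but not with library totals (adjusted p = 0.08) or DESeq2 (adjusted p = 0.0646), nor when drug replicate 2 (adjusted p = 0.203) or untreated replicate 1 (adjusted p = 0.171) was left out. Nr4a2, the only NR4A gene with more than the filter's minimum of counts, held 1.36 to 2.81 CPM in the 6 libraries and passed no test. Ier5 also passed none, Ier5l was below the filter, and Egr4 and Nr4a3 had 0 counts in every library.

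Of these 9 relatives 6 were tested, and 2 rose and 1 fell with drugs against vehicle, beside 18.1% and 13.8% of all tested genes. Between vehicle and day 0, 0 passed with edgeR or DESeq2, beside 3.75% and 3.99% of all genes. Of these 6 relatives, 2 were lower at an unadjusted p under 0.05, and 1 fell without untreated replicate 2. Against day 0, 1 rose and 2 fell with drugs, beside 22.7% and 21.2%. These counts became 1 and 0 without drug replicate 2 or vehicle replicate 1 with drugs against vehicle, and 1 and 1 without drug replicate 2 or untreated replicate 1 with drugs against day 0. The median log2 change of the relatives was 0.10, -0.30 and -0.29 in these 3 comparisons, beside 0.00, -0.02 and -0.01 over all genes.

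Set per kilobase, the FOS and JUN families differed in composition between groups. Fosl2 made up 65.7% ± 0.085 of the summed FOS family level with drugs, 40.0% ± 0.302 with vehicle and 30.4% ± 2.02 at day 0 (SD, n = 2 each). The share of Fos was 28.2% ± 1.79 with drugs, 40.3% ± 3.53 with vehicle and 44.5% ± 5.96 at day 0 (SD, n = 2 each), and Fosb stayed under 1% in every library. The family's sum was 18.6 ± 0.764 CPM per kilobase with drugs, 11.1 ± 0.0132 with vehicle and 13.1 ± 0.739 at day 0.

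In the JUN family, the share of Jun was 11.9% ± 0.684 with drugs, 5.14% ± 0.0949 with vehicle and 8.29% ± 0.433 at day 0 (SD, n = 2 each). Junb held 50.2% ± 1.78 with drugs, 66.5% ± 0.464 with vehicle and 68.2% ± 0.610 at day 0. Jund held 37.9% ± 1.09 with drugs, 28.3% ± 0.369 with vehicle and 23.5% ± 0.177 at day 0. The JUN sum was 13.6 ± 0.053 CPM per kilobase with drugs, 12.9 ± 0.751 with vehicle and 18.7 ± 0.811 at day 0. These shares contain genes chosen for their levels and were not tested.

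**Figure D3:**
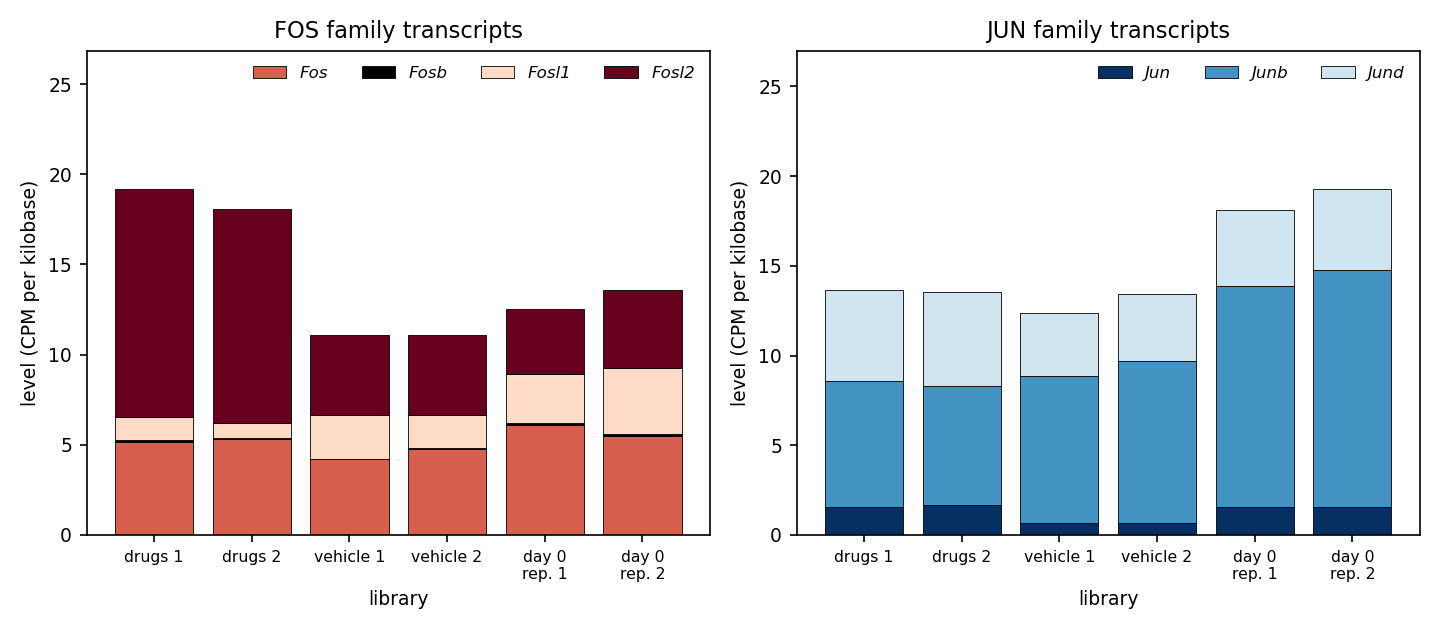
Stacked levels of the FOS family (left: Fos, Fosb, Fosl1, Fosl2) and JUN family (right: Jun, Junb, Jund) in each of the 6 libraries, in CPM per kilobase of transcript from an axis that starts at 0. Fosl2 is the largest block in both drug-treated libraries, and the Junb block is largest in all libraries of the JUN family and tallest at day 0.

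Of 8 tested genes for other bZIP partners of AP-1, from 10 listed, 0 passed with edgeR or DESeq2 with drugs against vehicle, beside 18.1% higher and 13.8% lower among all genes, and 2 were higher at an unadjusted p under 0.05. By either tool 0 passed in vehicle against day 0, with 1 higher and 1 lower unadjusted, beside 3.75% and 3.99% of all genes. Against day 0, drug-treated cells showed 1 rise and 2 falls, beside 22.7% and 21.2% of all genes. The rise became 4 with library totals and 2 without vehicle replicate 2, and the falls became 4 without untreated replicate 2 and 1 without drug replicate 1, drug replicate 2 or untreated replicate 1. Atf7 rose by 0.51 ± 0.11 (edgeR adjusted p = 0.00227), and Mafk, a small MAF protein gene, fell by 0.39 ± 0.09 (edgeR adjusted p = 0.00326). Batf, an AP-1 factor of immune cells, fell by 0.46 ± 0.17 (edgeR adjusted p = 0.0416), but not in 6 alternatives, among them leaving out drug replicate 1 (adjusted p = 0.214), drug replicate 2 (adjusted p = 0.0917) or untreated replicate 1 (adjusted p = 0.394).

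A wider list of 39 other primary-response genes, of which 28 had enough counts, was tested next. With drugs against vehicle 9 rose and 2 fell, with a median log2 change of 0.36, beside 18.1% and 13.8% of all tested genes and a median of 0.00. Vehicle against day 0 gave 9 falls and 0 rises, with 1 higher at an unadjusted p under 0.05 and 0 with DESeq2, and the median was -0.35, beside 3.75% higher and 3.99% lower among all tested genes and a median of -0.02. Drugs against day 0 gave 6 rises and 7 falls, with a median of 0.01, beside 22.7% and 21.2% of all tested genes and a median of -0.01. The list was drawn up with earlier results of these data known, and the first pair of comparisons shares the vehicle libraries. The 9 rises with drugs against vehicle became 5 without drug replicate 1, 6 without vehicle replicate 2 and 6 with DESeq2, and the 2 falls became 0 without drug replicate 2 and 1 without drug replicate 1 or vehicle replicate 2. The 6 rises with drugs against day 0 became 3 without drug replicate 1, without drug replicate 2 and with DESeq2, and 4 without untreated replicate 2.

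Nfkbiz, an inducible nuclear IκB protein gene, had 35.6 and 35.7 CPM with drugs, 16.6 CPM in both vehicle libraries, and 31.3 and 25.7 CPM at day 0. It rose by 1.10 ± 0.11 with drugs against vehicle (edgeR adjusted p = 7.98e-06) and fell by 0.79 ± 0.11 in vehicle against day 0 (edgeR adjusted p = 0.00131). As with Jun, the vehicle libraries were the low ones. Pim1, a survival kinase gene downstream of cytokine receptors, rose by 1.10 ± 0.11 with drugs against vehicle (edgeR adjusted p = 9.72e-06), and Gem, a small GTPase gene, rose by 1.93 ± 0.34 (edgeR adjusted p = 0.000857).

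Arc, best known as a synaptic immediate-early gene, had 1.60 and 1.16 CPM with drugs, 0.63 and 0.08 CPM with vehicle, and 0.06 and 0.08 CPM at day 0. Arc lay below the level of 3 counts in vehicle replicate 2 and in both untreated libraries. It rose by 1.87 ± 0.55 with drugs against vehicle (edgeR adjusted p = 0.0212), but not with DESeq2 (adjusted p = 0.119), nor when drug replicate 1 (adjusted p = 0.137) or vehicle replicate 2 (adjusted p = 0.181, change 1.08) was left out, while without vehicle replicate 1 the change was 3.88. Ppp1r15a, a stress-induced phosphatase subunit gene (GADD34), had 8.33 and 8.20 CPM with drugs, 9.17 and 8.28 CPM with vehicle, and 26.6 and 20.3 CPM at day 0. Both day 3 groups were low. It fell by 1.44 ± 0.15 in vehicle against day 0 (edgeR adjusted p = 0.000133) and by 1.52 ± 0.15 with drugs against day 0 (edgeR adjusted p = 4.05e-06).

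Ptgs2, which encodes the inducible prostaglandin synthase COX-2, had 1.44 and 1.16 CPM with drugs, 2.77 and 3.26 CPM with vehicle, and 8.26 and 6.98 CPM at day 0. It was lowest with drugs and highest at day 0, and fell by 1.35 ± 0.20 in vehicle against day 0 (edgeR adjusted p = 0.00145) and by 2.57 ± 0.23 with drugs against day 0 (edgeR adjusted p = 1.93e-06).

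**Figure D4:**
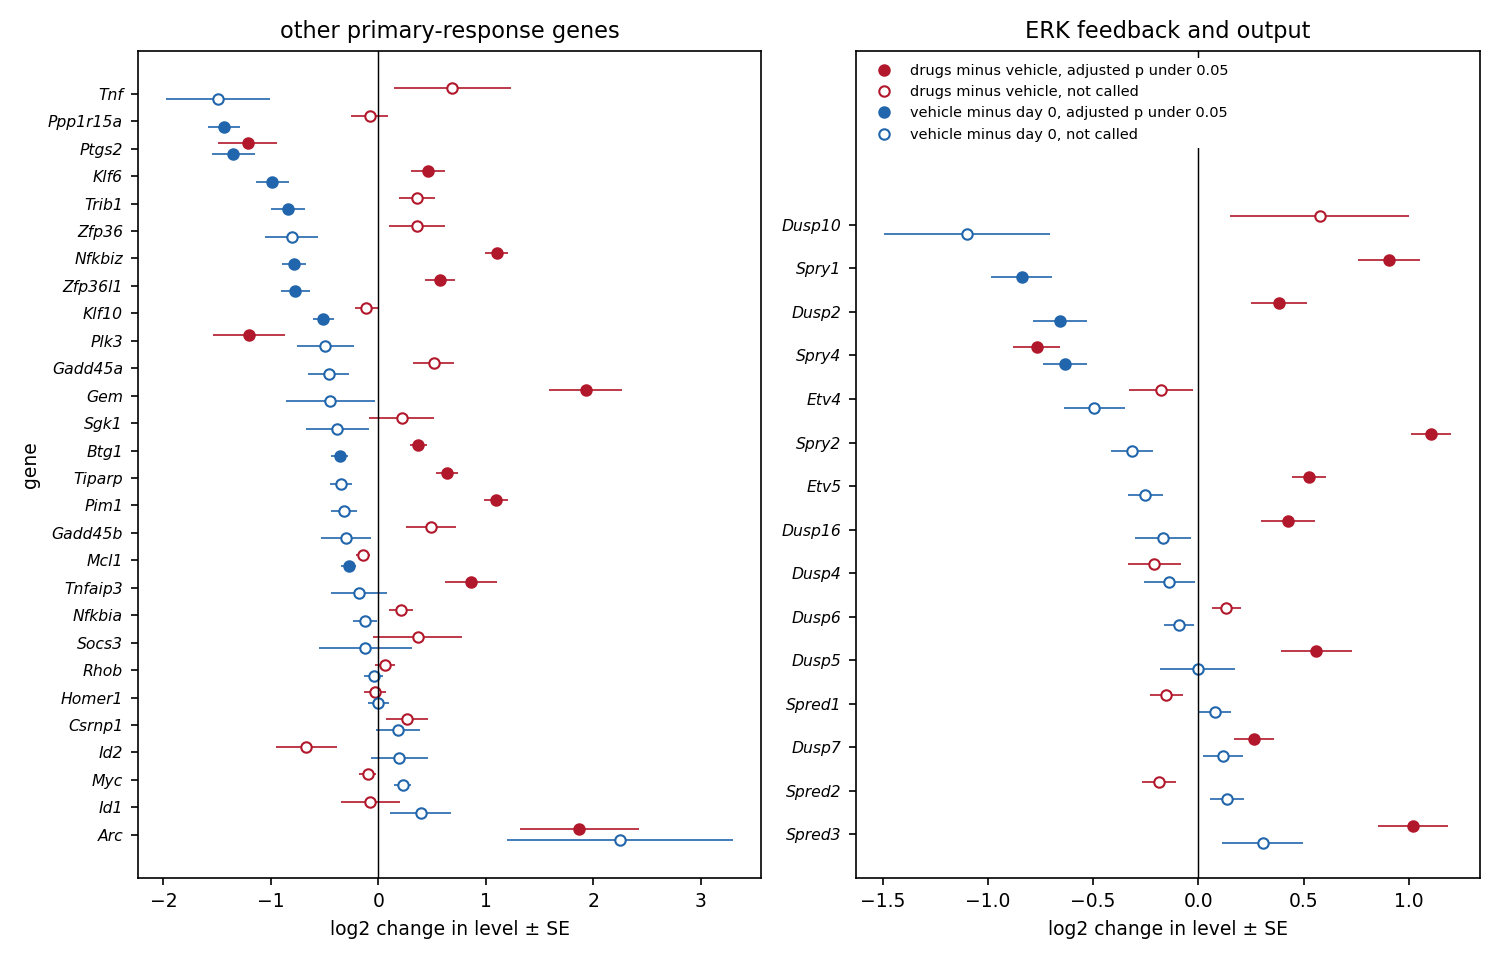
Log2 changes with bars of 1 SE for the 28 tested other primary-response genes (left) and the 15 genes of ERK feedback and output (right), for drugs minus vehicle (red) and vehicle minus day 0 (blue). Filled points passed the edgeR test at an adjusted p under 0.05. On the left, the 9 filled blue points all lie below 0, and 9 of the 11 filled red points lie above 0.

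A list named for ERK feedback and output was tested next, and all 15 of its genes passed the filter. It holds Sprouty and Spred genes, Etv genes as readouts, and dual-specificity phosphatases, not all of which act mainly on ERK. With drugs against vehicle 8 rose and 1, Spry4, fell, beside 18.1% and 13.8% of all tested genes, with a median log2 change of 0.38 beside 0.00 over all genes. With vehicle 3 fell against day 0 (Spry4, Spry1 and Dusp2) and 0 rose, also 0 unadjusted and with DESeq2, beside 3.99% lower and 3.75% higher among all genes, with a median of -0.17 beside -0.02. Drugs against day 0 gave 5 rises and 3 falls, beside 22.7% and 21.2%, with a median of 0.04 beside -0.01. The 8 rises became 4 without drug replicate 1, without drug replicate 2, without vehicle replicate 2 and with DESeq2, and 5 without vehicle replicate 1 and with library totals. The 5 rises against day 0 became 3 without drug replicate 1 and 2 without drug replicate 2, and the 3 falls became 1 without drug replicate 2.

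Spry2 and Spry4, both Sprouty inhibitors of receptor tyrosine kinase signalling, moved in opposite directions with drugs, against vehicle and against day 0. The levels of both were lower in vehicle than at day 0. Spry2 had 36.7 and 36.5 CPM with drugs, 17.0 CPM in both vehicle libraries, and 20.6 and 21.8 CPM at day 0, and rose by 1.11 ± 0.10 with drugs against vehicle (edgeR adjusted p = 1.93e-06). Spry4 had 23.1 and 24.6 CPM with drugs, 45.2 and 36.0 CPM with vehicle, and 66.1 and 59.8 CPM at day 0. It fell by 0.77 ± 0.11 with drugs against vehicle (edgeR adjusted p = 0.000199) and by 0.63 ± 0.10 in vehicle against day 0 (edgeR adjusted p = 0.00262). Spred3, a Sprouty-related gene, rose by 1.02 ± 0.17 with drugs against vehicle (edgeR adjusted p = 0.000481). Spry1 fell by 0.84 ± 0.15 in vehicle against day 0 (edgeR adjusted p = 0.00428). Dusp2 fell by 0.66 ± 0.13 there (edgeR adjusted p = 0.00848), but not when vehicle replicate 1 (adjusted p = 0.0723) or untreated replicate 1 (adjusted p = 0.0861) was left out.

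The regulators of immediate-early genes showed no single direction. Of 16 tested genes for SRF, its cofactors and CREB regulators, 3 rose (Mkl2, Creb1 and Rps6ka4) and 4 fell (Srf, Atf1, Rps6ka1 and Rps6ka3) with drugs against vehicle, beside 18.1% and 13.8% of all genes. These became 1 and 1 without drug replicate 1, 1 and 2 without drug replicate 2, and 1 and 6 without vehicle replicate 2. Vehicle against day 0 gave 1 rise and 0 falls, beside 3.75% and 3.99% of all genes, and DESeq2 gave the same counts. At an unadjusted p under 0.05, 4 were higher and 3 lower. The rise became 5 with library totals, 4 without untreated replicate 2, 2 without vehicle replicate 2 and with no filter, and 0 in the 5 alternatives that lost Creb1. Against day 0, 5 rose and 4 fell with drugs, beside 22.7% and 21.2%, which became 7 and 2 with library totals, 3 and 2 with DESeq2 and without drug replicate 1, 4 and 2 without drug replicate 2, and 5 and 2 without untreated replicate 2. Rps6ka4, which encodes the kinase MSK2 that phosphorylates CREB, rose by 0.87 ± 0.08 with drugs against vehicle (edgeR adjusted p = 5.07e-06), and Rps6ka3, which encodes the ERK-activated kinase RSK2, fell by 0.42 ± 0.09 (edgeR adjusted p = 0.00418). Creb1 rose by 0.34 ± 0.08 in vehicle against day 0 (edgeR adjusted p = 0.0165), but not in 5 alternatives, among them leaving out drug replicate 1 (adjusted p = 0.0587), drug replicate 2 (adjusted p = 0.0559), vehicle replicate 1 (adjusted p = 0.113) or untreated replicate 1 (adjusted p = 0.0941). Median log2 changes of these regulators were 0.09, 0.11 and 0.05 for drugs against vehicle, vehicle against day 0 and drugs against day 0.

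Among 21 genes of the cascade from KIT through RAS to ERK, 5 rose and 5 fell with drugs against vehicle, beside 18.1% and 13.8% of all genes, with a median of -0.03. These became 1 and 0 without drug replicate 2, 2 and 1 without drug replicate 1, 4 and 1 without vehicle replicate 1, 2 and 5 without vehicle replicate 2, and 3 and 2 with DESeq2. In vehicle against day 0, 0 passed with edgeR or DESeq2, with 4 higher unadjusted and 7 higher with library totals, beside 3.75% higher and 3.99% lower among all genes. Rasgrp4, a RAS activator of myeloid and mast cells, had 3.52 and 3.03 CPM with drugs, 0.95 and 0.92 CPM with vehicle, and 1.68 and 1.33 CPM at day 0. It rose by 1.79 ± 0.29 with drugs against vehicle (edgeR adjusted p = 0.000521). Hras1, a RAS gene, fell by 0.48 ± 0.10 (edgeR adjusted p = 0.00323), but not when drug replicate 2 was left out (adjusted p = 0.0523). In drug-treated cells 6 rose and 4 fell against day 0, beside 22.7% and 21.2% of all genes. The rises became 9 with library totals, and the falls became 2 without drug replicate 1 or drug replicate 2. Kit, the stem cell factor receptor gene, rose by 0.44 ± 0.08 (edgeR adjusted p = 0.00105).

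Among 11 tested genes of the JNK and p38 cascades, 3 rose and 2 fell with drugs against vehicle, beside 18.1% and 13.8% of all genes, and the falls became 1 without drug replicate 1, drug replicate 2 or vehicle replicate 1 and with DESeq2. Map3k1, a kinase upstream of JNK, which phosphorylates JUN, had 102 and 104 CPM with drugs, 57.6 and 53.1 CPM with vehicle, and 45.7 and 46.5 CPM at day 0. It rose by 0.89 ± 0.07 with drugs against vehicle (edgeR adjusted p = 9.64e-07). Its rise of 0.27 ± 0.08 in vehicle against day 0 (edgeR adjusted p = 0.0496), the only call of the list there, was lost in 9 alternatives, among them leaving out any 1 library other than vehicle replicate 2. Mapk13, which encodes p38 delta, had 3.76 and 3.36 CPM with drugs, 0.40 and 0.42 CPM with vehicle, and 0.36 and 0.33 CPM at day 0. It rose by 3.10 ± 0.34 with drugs against vehicle (edgeR adjusted p = 1.78e-05). Over the whole list, drugs against day 0 gave 2 rises and 2 falls, beside 22.7% and 21.2% of all genes, and DESeq2 gave the same counts.

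Among 9 tested actin-linked SRF targets, 3 fell and 0 rose with drugs against vehicle, also 0 higher unadjusted and with DESeq2, beside 13.8% lower and 18.1% higher among all genes. The falls became 5 without untreated replicate 1 or untreated replicate 2, with library totals, with only the 2 groups and with Rn45s left out, and 2 with the replicate block and without drug replicate 1, drug replicate 2 or vehicle replicate 1. Tpm1, a tropomyosin gene, fell by 0.73 ± 0.08 with drugs against vehicle (edgeR adjusted p = 2.12e-05) and by 0.41 ± 0.08 in vehicle against day 0 (edgeR adjusted p = 0.00611). Vcl, which encodes vinculin, fell by 0.64 ± 0.07 with drugs against vehicle (edgeR adjusted p = 1.63e-05). Drugs against day 0 gave 2 rises (Cnn2 and Flna) and 4 falls (Actb, Vcl, Tagln2 and Tpm1), beside 22.7% and 21.2% of all genes. With DESeq2 these were 1 and 4. For vehicle against day 0, 1 rose and 1 fell, beside 3.75% and 3.99% of all genes, and the rise of Flna by 0.34 ± 0.09 (edgeR adjusted p = 0.0421) was lost in 6 alternatives, among them leaving out vehicle replicate 1 (adjusted p = 0.320), untreated replicate 1 (adjusted p = 0.199), drug replicate 1 (adjusted p = 0.106) or drug replicate 2 (adjusted p = 0.103).

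Heat-shock genes, commonly read as signs of stress, are given beside the day 0 levels of the 10 genes. Their summed level was 7973 and 8081 CPM with drugs, 8548 and 8597 CPM with vehicle, and 8269 and 9117 CPM at day 0, so it overlapped between vehicle and day 0. Their part in the day 0 levels of the 10 genes was not tested. Of 10 tested, 0 passed in vehicle against day 0 with edgeR or DESeq2, with 1 higher and 1 lower unadjusted, beside 3.75% higher and 3.99% lower among all genes. With drugs against day 0, 5 fell (Hsph1, Dnaja1, Hspe1, Hspd1 and Hsp90aa1) and 1 rose (Hspa8), beside 21.2% and 22.7% of all genes. DESeq2 gave the same counts, which changed when a library was left out. Libraries did not overlap for 9 that were lower there and 1 that was higher, beside 36.1% and 37.2% of all genes. With drugs against vehicle 3 fell, beside 13.8% of all genes, led by Hsph1 at -0.60 ± 0.08 (edgeR adjusted p = 0.000141). The 3 falls became 1 without drug replicate 1 and 5 without untreated replicate 1 or untreated replicate 2. Hspb1 was at 0 in every library.

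Marker sums of other cell types moved with the groups as well, and their part in the levels of the 10 genes was not tested. The 8 erythroid and megakaryocyte markers summed to 18.7 and 14.5 CPM with drugs, 16.7 and 21.3 CPM with vehicle, and 45.5 and 33.9 CPM at day 0, with day 0 high as for Egr1. The 5 mast cell and basophil markers, nearly all Cpa3, summed to 1212 and 1126 CPM with drugs, 496 and 480 CPM with vehicle, and 1089 and 903 CPM at day 0, with vehicle low as for Jun and Nfkbiz. That sum follows Cpa3 and not the whole list. With drugs against vehicle and against day 0, edgeR called Cpa3 higher but Mcpt8 lower. The 7 macrophage markers, nearly all Emr1, summed to 69.1 and 67.5 CPM with drugs, 21.8 and 18.6 CPM with vehicle, and 30.0 and 26.3 CPM at day 0. The 8 stromal and endothelial markers summed to 280 and 276 CPM with drugs, 202 and 191 CPM with vehicle, and 249 and 256 CPM at day 0. In the macrophage and the stromal and endothelial sums, too, the vehicle libraries were lowest, so this pattern was not particular to the mast cell and basophil list. The 8 lymphoid markers summed to 41.4 and 40.6 CPM with drugs, 81.7 and 66.8 CPM with vehicle, and 61.7 and 71.4 CPM at day 0. Among them, edgeR called Ebf1 lower but Cd79a higher with drugs against vehicle.

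Genes with a pattern like that of Egr1 or Fos were looked for among 8400 genes with a mean of at least 10 CPM, by Pearson's r of log2(CPM + 0.5) over the 6 libraries, which share their groups and scaling. For Egr1 the first was Muc13, a membrane mucin gene, with r = 0.998 and 147 and 143.5 CPM with drugs, 151 and 137 CPM with vehicle, and 310 and 294 CPM at day 0. Tespa1 (0.994), Pigc (0.991), Entpd4 (0.990) and Lrrfip1 (0.990) came next, and all 5 were highest at day 0. Lrrfip1 spanned only 161 to 173 CPM, so a high r does not mean a like size of change. For Fos the first were Tomm40l (0.990), Srsf5 (0.989), Acyp1 (0.988), Dusp2 (0.983) and Tigd2 (0.982).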

How the data were processed

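Polyadenylated RNA of 6 libraries was measured. The authors deposited counts of reads per gene, without normalisation, with gene positions and a Length column in bases (another unit), which was used for CPM per kilobase. The submitters' processing notes name STAR 2.7.0f, deepTools 3.0.2 and the mm10 build, and the labels call the table featurecount. No source used here gives the strand setting, the annotation release or the treatment of reads with several matches.

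Genes were filtered with filterByExpr (11283 of 23337 kept), scaled by TMM, and fitted with edgeR 4.0.16 (R 4.3.3) as 3 groups in 1 quasi-likelihood model with 3 residual degrees of freedom, without a replicate block. The prior count was 0.125. P-values were adjusted by Benjamini-Hochberg over all tested genes, with a threshold of 0.05, and the SE was derived from the F statistic. The libraries are called biological replicates, but nothing says that they came from separate animals, so p-values measure the spread between these libraries. Replicate counts differed by more than counting error (chi-square per degree of freedom 1.85 for drugs, 5.78 for vehicle and 14.1 for day 0). The 14 alternatives were RLE scaling, library totals, DESeq2 1.42.0, no filter, at least 10 CPM in 2 libraries, only the 2 groups compared, a replicate block, Rn45s left out, and each library left out. On data simulated for drug versus vehicle with 11283 genes, of which 200 were changed, the fit recovered 91% of 2-fold and 94% of 4-fold changes with 5 false calls. The simulation gave all groups the same trend of spread and left every other gene unchanged. The real groups differed in spread, so these figures may not carry over to the data, and comparisons with day 0 were not simulated.

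The 10 genes and all gene lists were chosen with earlier results of these data known. Named genes are all 10, their relatives, Nab1 and Nab2 and, per list and comparison, up to 4 called genes (the 2 smallest p and the 2 largest changes); some genes that the rule selects are not reported here, and genes that are only listed as the members of a count were named after their values were seen. Of 203 list entries, 7 were matched by an older symbol (Hras1, Mkl2 and Emr1 among them). Sequences are from RefSeq (GRCm38.p6).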

Additional observations from a re-analysis of the deposited data

How the results depend on the processing

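Of 1279 recomputed log2 changes (94 gene and comparison pairs under up to 14 alternatives), 1215 stayed on their side of the threshold, 61 lost the call and 3 gained one. The sign changed in 28, all of them called in neither fit, among them Egr1 (3) and Ier2 (1) with drugs against vehicle, and Dusp1 in vehicle (1) and with drugs (5) against day 0. Lower calls among the 10 genes with drugs against vehicle became 0 with library totals, DESeq2, the filter of at least 10 CPM and the replicate block (0 to 1 with a library left out), and the higher call became 0 under that filter, which removes Jun. In vehicle against day 0, lower calls among the 10 became 3 under it (3 to 5 with a library left out). For all genes, calls higher and lower in vehicle against day 0 were 423 and 450, and became 1741 and 216 with library totals, 255 and 236 with DESeq2, 821 and 843 with no filter, 269 and 258 with only the 2 groups, and 222 and 261 with the replicate block. With a library left out they spanned 155 to 851 higher and 196 to 1161 lower. With drugs against vehicle, 2041 higher and 1560 lower calls spanned 1251 to 2291 and 582 to 1900. With drugs against day 0, 2394 lower calls became 1321 with library totals, and leaving out a library gave 1667 to 2632 higher and 1205 to 2625 lower. Library totals moved the median log2 change of all genes to 0.10, against -0.02 with TMM, in vehicle against day 0. The cause of these moves was not tested. With only the 250 bases before the start, TATAAA was found in 1 of the 7 genes instead of 2.

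The labels do not say whether replicate numbers pair the libraries. Same-number deviations had a correlation of 0.0807 (drugs with vehicle), -0.199 (vehicle with day 0) and -0.0604 (drugs with day 0). With 2 libraries per group, these values cannot settle whether cultures were paired. A block with the numbers of the day 0 libraries swapped, chosen after seeing the data, gave 1097 higher and 1283 lower calls in vehicle against day 0. Depth limits Egr2, Fosb and the day 3 levels of Egr1, each at 28 counts or fewer per library.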
